A study of Mus musculus with 8 samples.

Results

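The GABA-A receptor subunits described here are the products of 7 genes, *Gabra2*, *Gabra3*, *Gabra4*, *Gabra5*, *Gabrb1*, *Gabrb2* and *Gabrd*. They were taken by name, by a rule that uses no measured value but that was set with earlier results of these data known, and all 7 were matched by gene symbol among the 38553 genes of the deposited table. Another 9 genes of the same family were kept beside them for comparison. Expression was measured by RNA-Seq in the dorsal and the ventral medial entorhinal cortex (MEC), the cortical area that holds grid cells, with 4 libraries from each region. The mice, 13 in all, were C57BL/6JolaHsd males 8 weeks old, and from each the dorsal and ventral ends of the right MEC were dissected out of 1 sagittal slice, 400 µm thick. Mice were pooled by region in 4 groups of 3 or 4, so libraries of a region differ as pools of mice do, and the 4 dorsal and 4 ventral libraries stand for the same animals. The values are FPKM, the fragments of a gene per kilobase of exon, scaled for the fragments mapped in the library and summed over its transcripts, so levels of different genes can be set side by side per length. No fragment counts were used and the depth of the libraries was not determined here.

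The regions of the libraries need a statement before any result. The columns of the deposited table are headed with D or V and a number, and these headings do not give the regions that the authors' own comparison table implies. The dorsal mean FPKM of that comparison table is the mean of the columns headed D1, D2, V1 and V2, and its ventral mean is that of D3, D4, V3 and V4, within 0.1% for 13388 of 13400 genes. The next best of the 70 possible assignments matched 294 genes. Which of its conditions is dorsal was taken from the study. The regions used here are therefore those of the comparison table, known from this agreement of values and not from a label, and the heading names the other region for 4 of the 8 libraries. Libraries are numbered dorsal 1 to 4 (headed D1, V1, D2 and V2) and ventral 1 to 4 (headed D3, V3, D4 and V4). Heading and table name the same region for dorsal 1, dorsal 3, ventral 2 and ventral 4. Which libraries come from the same mice is not given, and dorsal and ventral libraries were compared unpaired.

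GABA-A receptors are chloride channels opened by GABA, the main inhibitory transmitter of the cortex, and each receptor is assembled from several subunits around a central pore. Alpha and beta subunits together form the site that binds GABA, and the alpha subunit and the presence of a gamma or a delta subunit set the receptor's kinetics, drug sensitivity and place on the neuron. Receptors with the alpha subunits of *Gabra2* or *Gabra3* and a gamma subunit are typically held at synapses, where they carry brief inhibitory currents, whereas receptors with the subunits of *Gabra4*, *Gabra5* or *Gabrd* are largely extrasynaptic and carry a tonic current. Following this use, *Gabra2*, *Gabra3*, *Gabrb1* and *Gabrb2* are called synaptic members and *Gabra4*, *Gabra5* and *Gabrd* extrasynaptic members, although beta subunits take part in receptors of both kinds.

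The genes lie mostly in clusters (mouse build GRCm38). *Gabra2* (70961057 to 71095849, minus strand), *Gabra4* (71569734 to 71658308, minus strand) and *Gabrb1* (71699932 to 72138389, plus strand) share chromosome 5 with *Gabrg1*. *Gabrb2* is on chromosome 11 (42419757 to 42629028, plus strand), next to *Gabra6*. *Gabra5* is on chromosome 7 (57387304 to 57510009, minus strand), next to *Gabrg3*. *Gabra3* is on chromosome X (72432681 to 72656848, minus strand), between *Gabre* and *Gabrq*, and *Gabrd* is on chromosome 4 (155384980 to 155398112, minus strand), far from the other subunit genes of that chromosome.

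The promoters of the 2 members that differed between the regions, *Gabra3* and *Gabrb1*, are shown with those of *Gabra2*, whose fold change was like that of *Gabrb1*, and *Gabrb2*, whose ventral libraries all lay below the dorsal ones. Each line gives the 250 bases before the annotated start nearest to the deposited gene's start, from RefSeq on build GRCm38.p6, 5′ to 3′ on the strand of the gene, with every CG dinucleotide in capitals. The windows are chrX:72656808-72657057 (minus strand) for *Gabra3*, chr5:71699682-71699931 (plus strand) for *Gabrb1*, chr5:71095850-71096099 (minus strand) for *Gabra2* and chr11:42420190-42420439 (plus strand) for *Gabrb2*.
Gabra3: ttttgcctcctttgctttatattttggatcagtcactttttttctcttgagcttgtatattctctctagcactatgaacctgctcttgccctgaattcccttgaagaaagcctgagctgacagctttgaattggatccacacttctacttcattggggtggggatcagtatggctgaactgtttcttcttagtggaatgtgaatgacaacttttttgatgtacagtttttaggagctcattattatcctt
Gabrb1: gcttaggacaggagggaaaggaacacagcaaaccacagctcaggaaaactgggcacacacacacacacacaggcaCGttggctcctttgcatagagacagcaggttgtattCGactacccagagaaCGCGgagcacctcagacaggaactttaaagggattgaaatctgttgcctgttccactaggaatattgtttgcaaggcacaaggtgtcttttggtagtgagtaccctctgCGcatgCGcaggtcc
Gabra2: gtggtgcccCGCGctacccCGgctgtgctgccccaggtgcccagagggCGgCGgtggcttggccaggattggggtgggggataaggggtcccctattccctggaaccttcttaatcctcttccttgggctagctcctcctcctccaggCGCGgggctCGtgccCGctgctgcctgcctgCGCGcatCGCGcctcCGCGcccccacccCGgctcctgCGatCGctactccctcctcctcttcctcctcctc
Gabrb2: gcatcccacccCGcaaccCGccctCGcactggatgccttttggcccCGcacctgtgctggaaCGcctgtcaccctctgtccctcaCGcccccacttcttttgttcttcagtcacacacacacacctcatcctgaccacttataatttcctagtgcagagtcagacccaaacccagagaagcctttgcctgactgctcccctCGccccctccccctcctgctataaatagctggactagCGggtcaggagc
The *Gabra3* window held 0 CG dinucleotides, whereas 7.87% of the 32851 promoter windows of the same table held 0 and their median was 6. The window of the second annotated start of *Gabra3* (chrX:72656920-72657169), which overlaps the first, also held 0. *Gabra2* held 18, a number reached by 21.7% of all windows, *Gabrb2* held 8 and *Gabrb1* held 6. A second annotated start of *Gabrb1*, 42011 bases upstream, held 18 in its window. The letters TATAAA, searched on both strands, were in the windows of *Gabra3* and *Gabrb2* and in 12.4% of all windows. Promoters of 6 of the 7 members were matched in the table, with 12 CG dinucleotides for *Gabra4* and 9 for *Gabra5*; *Gabrd* was not matched. The 2 members called with higher ventral FPKM thus had unlike CG content in these windows.

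All 7 members were expressed in both regions. By mean FPKM over the 8 libraries, *Gabra5* stood at 78.1 and *Gabrb2* at 71.3, followed by *Gabra2* at 38.1, *Gabra4* at 26.6, *Gabra3* at 24.0 and *Gabrb1* at 21.3. *Gabrd* was far lower, at 2.91, above 22.6% of the genes tested, whereas *Gabra5* was above 95.4% of them. In dorsal MEC the order of mean FPKM among the members was *Gabra5*, *Gabrb2*, *Gabra2*, *Gabra4*, *Gabra3*, *Gabrb1* and *Gabrd*. The libraries of *Gabra5* and *Gabrb2* overlapped, as did those of *Gabra3* and *Gabrb1*, so neighbors in these 2 pairs did not differ beyond their spread. In ventral MEC the order was the same except that *Gabra3* stood above *Gabra4*. The ventral libraries of *Gabra5* and *Gabrb2*, of *Gabra3* and *Gabra4*, and of *Gabra4* and *Gabrb1* overlapped. The ratio of *Gabra3* to *Gabra4* FPKM was 0.712 ± 0.0282 (SD, n = 4) in dorsal libraries and 1.12 ± 0.0770 (SD, n = 4) in ventral libraries, with no overlap.

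To ask whether the members differed along the dorsoventral axis, the regions were compared with limma on log2(FPKM + 1) over the 13674 genes that the authors marked as having enough alignments and whose mean FPKM reached 1, and p-values were adjusted by the Benjamini-Hochberg method over all of them. A gene was called at an adjusted p under 0.05 and a ratio of mean FPKM beyond 1.2-fold. Fold changes are ventral minus dorsal on the log2(FPKM + 1) scale, which understates the change of low genes such as *Gabrd*. Of the 7 members, 2 were called with higher ventral FPKM, *Gabra3* and *Gabrb1*, against 198 of all genes tested (1.45%), and 0 with higher dorsal FPKM, against 294 of all genes (2.15%). In bulk tissue, more cells that express a gene and more RNA per cell cannot be told apart. At an unadjusted p under 0.05, limma placed *Gabra2*, *Gabrb2* and *Gabrd* beside these 2, of which *Gabrb2* and *Gabrd* were lower ventrally, where 2191 of all genes tested (16.02%) had such a p. The libraries of 3 members did not overlap between regions, *Gabra3*, *Gabrb1* and *Gabrb2*, against 11.1% of all genes. The median log2 ratio of mean FPKM was -0.11 over the 7 members and -0.0050 over all genes tested. It was 0.30 over the 4 synaptic members and -0.16 over the 3 extrasynaptic members. These are descriptions of few genes, and the difference between the 2 classes was not tested.

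**Figure D1:**
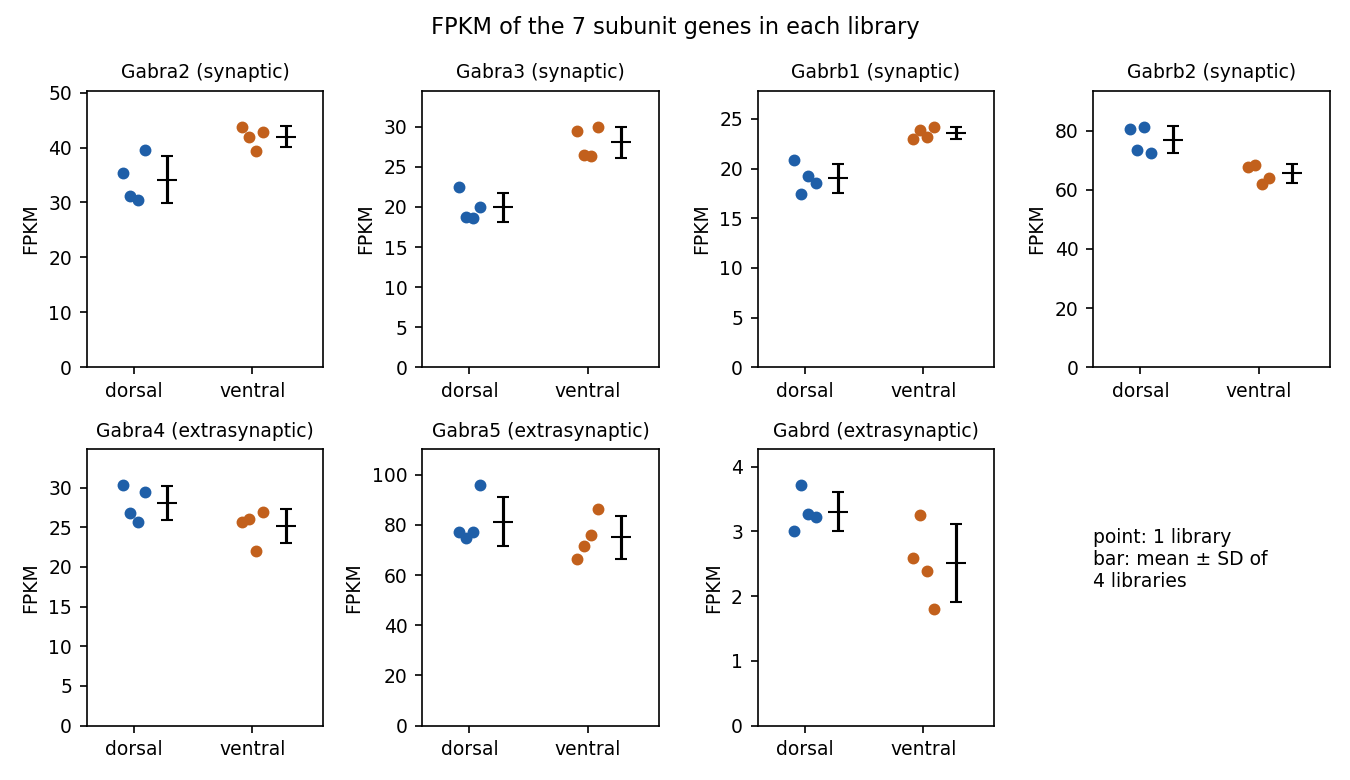
FPKM (vertical axis, starting at 0) of each of the 7 members in the 4 dorsal (blue) and 4 ventral (orange) libraries, 1 point per library, with the mean ± SD of each region as a black bar. Ventral points of *Gabra3* (26.3 to 30.03) and *Gabrb1* (23.0 to 24.2) all lie above the dorsal points, those of *Gabrb2* (62.1 to 68.6) all lie below, and the other 4 genes overlap between regions.

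Among the synaptic members, *Gabra3*, whose alpha subunit is known from deep cortical layers and monoaminergic neurons, differed most. Its FPKM was 22.5, 18.7, 18.7 and 19.96 in dorsal libraries 1 to 4 and 29.5, 26.5, 26.3 and 30.03 in ventral libraries 1 to 4. Every ventral library was above every dorsal one. The mean was 19.97 ± 1.79 (SD, n = 4) dorsally and 28.1 ± 1.96 (SD, n = 4) ventrally, which is 40.6% higher, with a log2 fold change of 0.47 ± 0.078 (SE) and an adjusted p of 0.00942 by limma. *Gabra3* was called in each of the 8 fits that left out 1 library, with adjusted p between 0.00713 and 0.0415.

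*Gabrb1* encodes a beta subunit. Its FPKM was 20.9, 17.4, 19.2 and 18.5 in the dorsal libraries and 23.0, 23.9, 23.2 and 24.2 in the ventral libraries. The ventral libraries lay close together and above all dorsal ones. The means were 19.015 ± 1.46 (SD, n = 4) and 23.6 ± 0.585 (SD, n = 4), 23.9% higher ventrally, with a log2 fold change of 0.30 ± 0.066 (SE) and an adjusted p of 0.0357 by limma. This call depended on single libraries. It was kept without dorsal 1 (adjusted p = 0.0296) and lost without any 1 of the other 7 libraries, with adjusted p up to 0.115 without dorsal 2. It was also lost when all libraries were rescaled to the same total (adjusted p = 0.0519) and without the variance trend (adjusted p = 0.0558), while the fold change stayed between 0.26 and 0.34 in all of these fits.

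*Gabra2*, whose alpha subunit is found at synapses on pyramidal cell bodies and axon initial segments, had an FPKM of 35.4, 31.1, 30.4 and 39.6 dorsally and 43.8, 42.0, 39.4 and 42.8 ventrally. Dorsal 4 exceeded ventral 3, and otherwise the ventral libraries were higher. The means were 34.1 ± 4.27 and 42.0 ± 1.88 (SD, n = 4 each), with a log2 fold change of 0.30 ± 0.086 (SE) that missed the threshold (adjusted p = 0.101 by limma, 95% interval 0.11 to 0.49). Without dorsal 4 it was 0.37 with an adjusted p of 0.0388, so that this library decided the call. The fold changes of *Gabra2* and *Gabrb1* were alike, with standard errors of 0.086 and 0.066.

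*Gabrb2*, which encodes a beta subunit of many synaptic receptors, had the lower mean in ventral MEC. Its FPKM was 80.6, 73.6, 81.4 and 72.4 in dorsal libraries and 67.8, 68.6, 62.1 and 63.9 in ventral libraries. No ventral library reached the lowest dorsal one. The means were 77.0 ± 4.65 and 65.6 ± 3.13 (SD, n = 4 each), a log2 fold change of -0.23 ± 0.065 (SE) with an adjusted p of 0.0946 by limma, above the threshold. The difference depended on the scaling. With all libraries rescaled to the same total, the log2 fold change was -0.18 (adjusted p = 0.394 by limma). The ratio of *Gabrb1* to *Gabrb2* FPKM was 0.247 ± 0.0123 (SD, n = 4) dorsally and 0.360 ± 0.0194 (SD, n = 4) ventrally, with no overlap between the regions.

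None of the 3 extrasynaptic members was called by limma, 1 had an unadjusted p under 0.05 (16.02% of all genes tested), and all 3 had a lower mean in ventral MEC. *Gabra4*, whose alpha subunit pairs with the delta subunit in receptors sensitive to neurosteroids, had an FPKM of 30.3, 26.8, 25.7 and 29.4 dorsally and 25.6, 26.1, 22.02 and 26.9 ventrally. The ranges overlapped, and the log2 fold change was -0.15 ± 0.081 (SE) with a 95% interval from -0.33 to 0.03 (adjusted p = 0.403 by limma). *Gabra5*, the alpha subunit of tonic inhibition in hippocampal and deep cortical pyramidal cells, had an FPKM of 77.2, 74.9, 77.0 and 95.8 dorsally and 66.3, 71.5, 76.0 and 86.3 ventrally. Dorsal 4 and ventral 4 were the highest libraries of their regions, and the ranges overlapped widely. These 2 libraries also had the highest FPKM summed over all genes, 341402 and 335328 against 298763 to 322920 in the other 6, and the part of this in the levels of *Gabra5* was not tested. The log2 fold change was -0.11 ± 0.101 (SE), with a 95% interval from -0.34 to 0.11 (adjusted p = 0.662 by limma).

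*Gabrd* encodes the delta subunit, which takes the place of a gamma subunit in extrasynaptic receptors. Its FPKM was 3.01, 3.71, 3.27 and 3.22 in dorsal libraries and 2.59, 3.25, 2.39 and 1.802 in ventral libraries. Ventral 2 lay within the dorsal range and the other 3 ventral libraries below it. The means were 3.30 ± 0.295 and 2.51 ± 0.596 (SD, n = 4 each), 24.0% lower ventrally as measured by the ratio of means, with a log2 fold change of -0.31 ± 0.125 (SE) and an adjusted p of 0.261 by limma. Its ventral spread, with a coefficient of variation of 23.7%, was the largest among the 7 members in either region. For the extrasynaptic members the intervals thus allow a ventral level down to 0.666-fold for *Gabrd*, 0.792-fold for *Gabra5* and 0.795-fold for *Gabra4* of the dorsal level of FPKM + 1.

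**Figure D2:**
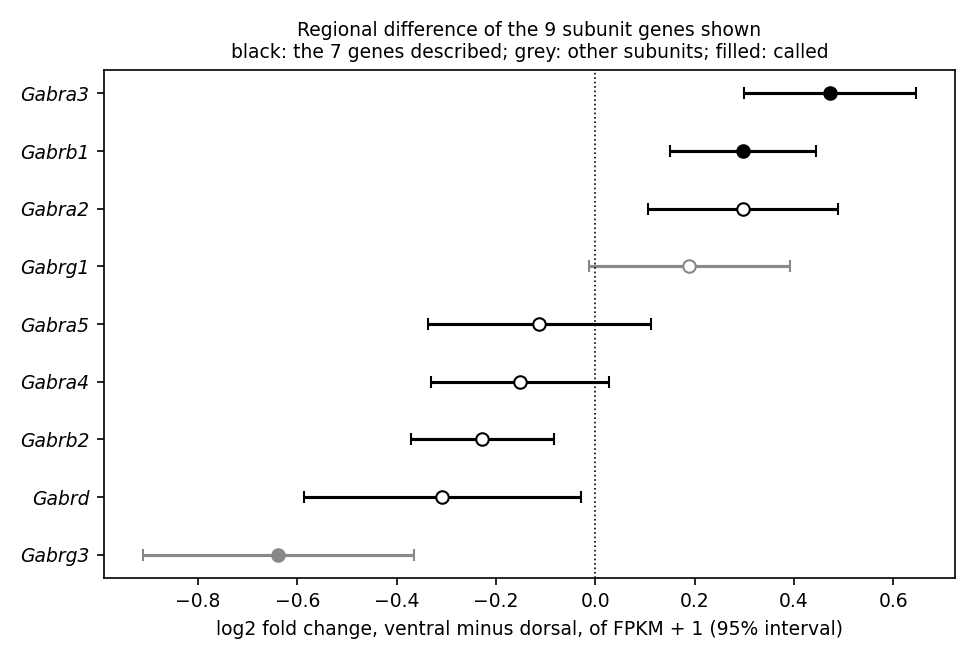
Ventral minus dorsal log2 fold change of FPKM + 1 (horizontal axis) with its 95% interval for the 9 tested subunit genes described here, members in black and other subunits in grey, with filled points for genes called. *Gabra3* (0.47) and *Gabrb1* (0.30) are the called genes to the right of 0 and *Gabrg3* (-0.64) the called gene to the left.

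Of the 9 other subunit genes, 2 had enough alignments to be tested. *Gabrg3*, a gamma subunit gene that is nearly adjacent to *Gabra5*, was called with higher dorsal FPKM. Its FPKM was 13.4, 12.3, 11.1 and 14.5 dorsally and 6.32, 9.98, 7.55 and 8.00 ventrally, without overlap, with a log2 fold change of -0.64 ± 0.123 (SE) and an adjusted p of 0.0191 by limma. Its call was kept without dorsal 3, ventral 2 or ventral 4 and lost without any 1 of the other 5 libraries, with adjusted p between 0.0507 and 0.0588. *Gabrg1*, a gamma subunit gene of the chromosome 5 cluster, had means of 3.80 ± 0.453 and 4.47 ± 0.331 FPKM (SD, n = 4 each) with overlap, and a log2 fold change of 0.19 ± 0.091 (SE, adjusted p = 0.348 by limma).

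The other 7 genes, *Gabra6*, *Gabre*, *Gabrp*, *Gabrq*, *Gabrr1*, *Gabrr2* and *Gabrr3*, were marked by the authors as having too few alignments and were not tested. *Gabrp* and *Gabrr3* were listed at 0 in all 8 libraries. *Gabrq*, which encodes the theta subunit and is the neighbor of *Gabra3* on chromosome X, was listed at 0.0573 to 0.118 in dorsal and 0.203 to 0.346 in ventral libraries. Among the 9 tested subunit genes described here 3 were called, where 3.60% of all genes were called in either direction.

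The 4 alpha subunit genes among the members were also set against each other within every library, as shares of their own summed FPKM, a measure chosen after their values had been seen. *Gabra3* took 12.3 ± 1.147% (SD, n = 4) of the sum in dorsal libraries and 16.5 ± 0.906% (SD, n = 4) in ventral libraries. *Gabra2* took 20.9 ± 0.693% and 24.7 ± 1.52%. The extrasynaptic alpha subunits each took a smaller share ventrally than dorsally. *Gabra4* took 17.2 ± 1.04% dorsally and 14.8 ± 1.045% ventrally, and *Gabra5* took 49.7 ± 2.24% and 44.0 ± 3.03%. None of the 4 shares overlapped between the regions, although the FPKM of *Gabra2*, *Gabra4* and *Gabra5* did. Of single genes tested, 11.1% did not overlap in FPKM, and how often shares of such sums separate was not determined. The margin was narrow for *Gabra4*, with a highest ventral share of 15.7% and a lowest dorsal share of 15.9%, and for *Gabra5*, with 46.4% and 46.7%. The sum was 163.4 ± 15.7 FPKM dorsally and 170.3 ± 10.6 ventrally (SD, n = 4 each), with overlap. Shares of one sum depend on each other, they leave out the alpha subunits not in the sum, and no test was made of them. With the regions that the headings name, the ventral minus dorsal difference was -1.145 percentage points for *Gabra3* and -0.45 for *Gabra2*, against 4.23 and 3.86 points with the regions used.

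**Figure D3:**
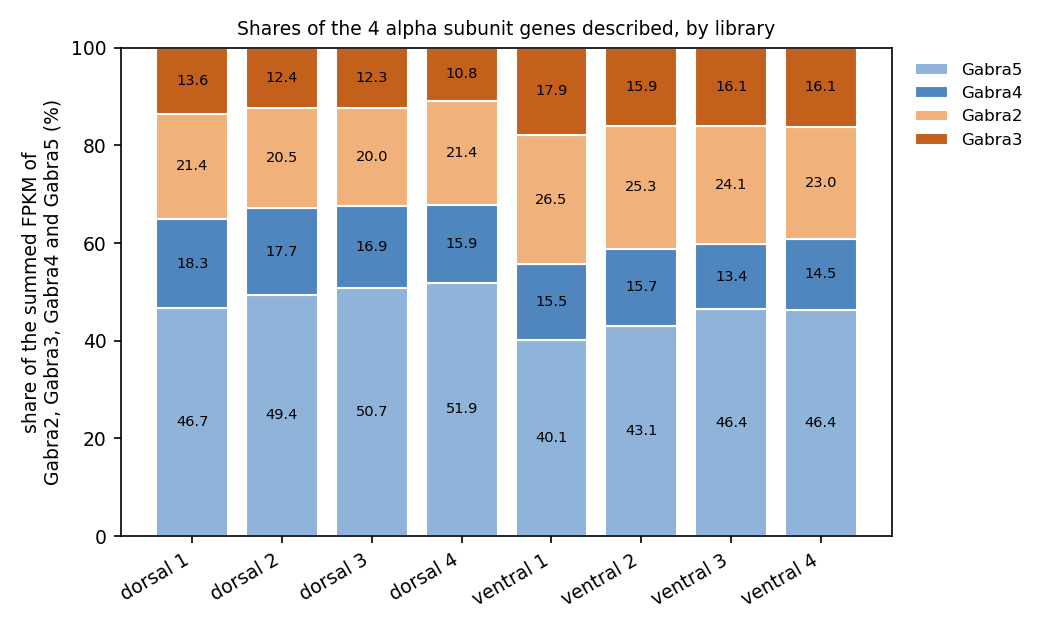
Share of *Gabra2*, *Gabra3*, *Gabra4* and *Gabra5* in their own summed FPKM (vertical axis, percent) in each of the 8 libraries, 1 stacked bar per library. The orange parts at the top, *Gabra2* and *Gabra3*, are larger in all 4 ventral bars than in any dorsal bar, and the blue parts, *Gabra4* and *Gabra5*, are smaller.

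The ratio of *Gabra2* to *Gabra4* FPKM was 1.215 ± 0.0888 dorsally and 1.67 ± 0.0938 ventrally (SD, n = 4 each), without overlap. The ratio of *Gabrd* to *Gabra4*, whose subunits meet in extrasynaptic receptors, was 0.119 ± 0.0176 and 0.1003 ± 0.0243 (SD, n = 4 each), with overlap. The ratio of summed extrasynaptic to summed synaptic member FPKM was 0.751 ± 0.0722 dorsally and 0.646 ± 0.0590 ventrally (SD, n = 4 each), with 1 or more libraries of each region inside the range of the other. Ratios between genes were not among the planned results, and no test was made of them. Those of *Gabra2* to *Gabra4*, *Gabra3* to *Gabra4* and *Gabrb1* to *Gabrb2* each set a ventrally higher mean over a ventrally lower one. They restate differences already described and add no support to them. The share of all gene pairs that separate in this way was not determined.

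Neighboring genes did not share a direction in every cluster. On chromosome 5, *Gabra2* and *Gabrb1* had higher and *Gabra4*, which lies between them, lower ventral means. The deposited loci of *Gabra4* and *Gabrb1* lie 41.6 kb apart. In another annotation of this build (GENCODE M21), however, exons of these genes overlap on opposite strands. The part of this overlap in their levels was not tested. Of all genes tested, 6.17% were lower in every ventral library than in any dorsal one, as was *Gabrb2* of the chromosome 11 cluster, and 4.95% were higher in every one, as were *Gabrb1* and *Gabra3*. On chromosome 7, where both genes are on the minus strand, the deposited start of *Gabrg3* lies 115 bases past the end of *Gabra5*. The ratio of *Gabrg3* to *Gabra5* FPKM was 0.159 ± 0.0131 dorsally and 0.107 ± 0.0220 ventrally (SD, n = 4 each), without overlap.

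These differences rest on the regions of the comparison table. With the regions that the headings name, limma called 0 members and placed 0 of them at an unadjusted p under 0.05, and the log2 fold changes were -0.03 for *Gabra3*, -0.05 for *Gabrb1*, 0.06 for *Gabra2* and -0.06 for *Gabrb2*. Over all genes, that assignment gave 1 gene with higher dorsal and 0 with higher ventral FPKM by limma, and 721 genes at an unadjusted p under 0.05 against 2191 with the regions used. With only the 4 libraries on which heading and table give the same region, the fold changes were 0.44 for *Gabra3*, 0.25 for *Gabrb1*, 0.36 for *Gabra2* and -0.29 for *Gabrb2*. No gene of the table was called with these 2 libraries per region by limma (1232 of the 13674 genes tested at an unadjusted p under 0.05, among them 4 of the 7 members), and the adjusted p of *Gabra3* was 0.423. For 6 of the 7 members the direction was the same in these 4 libraries as in all 8, and for *Gabra5* it was not (0.03 ± 0.117, SE). The 4 libraries are part of the 8, so like directions are no independent check.

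**Figure D4:**
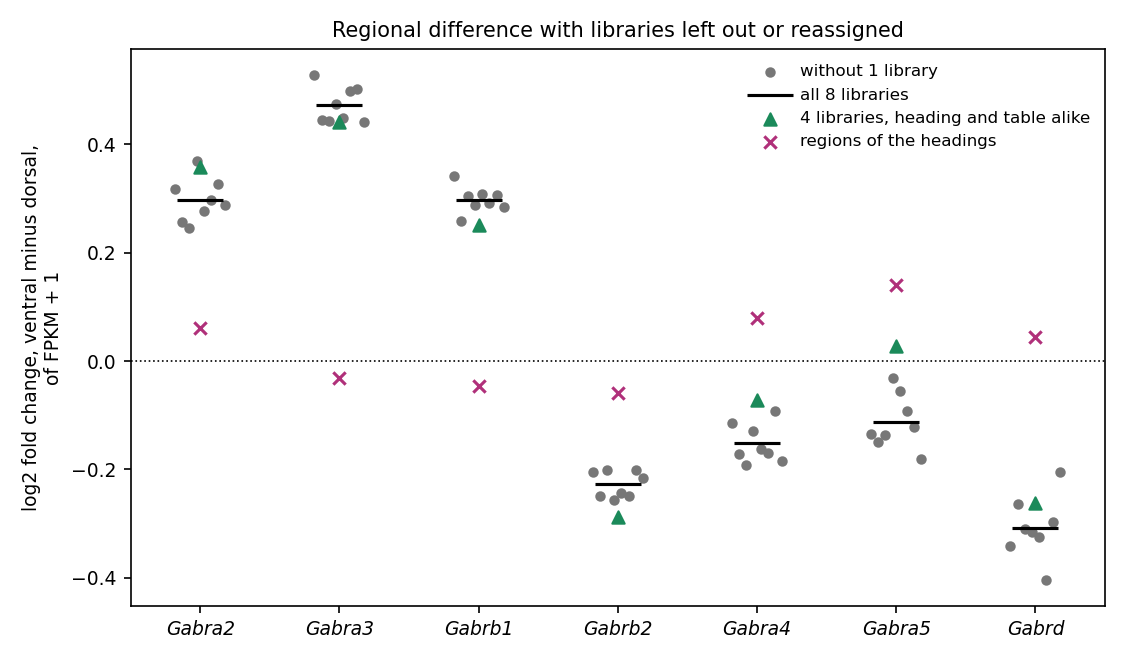
Ventral minus dorsal log2 fold change of FPKM + 1 (vertical axis) of each member with all 8 libraries (line), without each library in turn (grey points), in the 4 libraries whose heading and table region are alike (triangles) and with the regions of the headings (crosses). Grey points and lines of each member lie on 1 side of 0, from 0.44 to 0.53 for *Gabra3* and from -0.18 to -0.03 for *Gabra5*, whereas the crosses lie between -0.06 and 0.14.

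Other genes of inhibitory signaling were described from lists. Among 21 tested genes for receptor scaffolding and trafficking, *Hap1*, which takes part in receptor recycling, was called higher ventrally, at 2.62 ± 0.673 and 4.96 ± 1.015 FPKM (SD, n = 4 each; log2 fold change 0.72, adjusted p = 0.0375 by limma). *Plcl1*, an inositol phosphate binding protein linked to receptor trafficking, was called higher dorsally, at 7.20 ± 0.580 and 5.17 ± 0.417 FPKM (SD, n = 4 each; log2 fold change -0.41, adjusted p = 0.0214 by limma). *Gphn*, the gephyrin scaffold of inhibitory synapses (adjusted p = 0.469 by limma), *Nlgn2*, its adhesion partner (adjusted p = 0.758 by limma), and *Shisa7*, an auxiliary subunit of the receptor (0.25, adjusted p = 0.0573 by limma), did not pass. The median log2 ratio of this list was -0.05, and that of all genes tested -0.0050.

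Of 7 tested genes of GABA synthesis, uptake and breakdown, 0 were called by limma and 3 had an unadjusted p under 0.05, with log2 fold changes of -0.15 for *Gad1* (adjusted p = 0.276) and 0.14 for *Gad2* (adjusted p = 0.302), the enzymes that make GABA. Of 5 chloride transporters and channels, the importer *Slc12a2* was called higher dorsally, at 18.5 ± 1.78 and 13.2 ± 1.88 FPKM (SD, n = 4 each; log2 fold change -0.46, adjusted p = 0.0326 by limma). The exporter *Slc12a5*, which sets the low chloride of mature neurons, stood at 113.1 ± 4.17 and 113.6 ± 2.57 FPKM (adjusted p = 0.970 by limma). None of 5 GABA-B receptor genes and none of 4 tested genes of neurosteroid synthesis, such as *Cyp11a1* (-0.34, adjusted p = 0.130) and *Srd5a1* (0.15, adjusted p = 0.429), was called by limma, with 2 and 1 at an unadjusted p under 0.05. Of 3 tested glycine receptor genes, which encode another chloride channel, *Glra2* (0.50, adjusted p = 0.0120) and *Glra3* (0.45, adjusted p = 0.0323) were called higher ventrally by limma, and *Glrb* (-0.22, adjusted p = 0.216) was not called.

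Markers of the cell types in the tissue differed between the regions as well. All 8 oligodendrocyte markers were called higher dorsally, with a summed FPKM of 851 to 1127 in dorsal and 468 to 615 in ventral libraries and none at 0. Of 12 interneuron markers, *Pvalb*, *Lamp5* and *Npy* were called higher dorsally and *Sst* and *Calb2* higher ventrally. The sum over all 12 was 304 to 383 FPKM in dorsal and 369 to 460 in ventral libraries. *Sst* alone made up 81.6 to 150 FPKM of it dorsally and 169 to 262 ventrally, so the sum gives no direction for the other interneuron markers. Among 7 markers of glutamatergic neurons 1 was called, *Slc17a6*, higher dorsally, and the sums overlapped at 629 to 779 and 624 to 795 FPKM. Of 5 tested leptomeningeal markers, *Dcn* and *Igf2* were called higher ventrally. The sum over all 6 listed leptomeningeal markers, 1 of them not tested, was 66.8 to 72.3 FPKM in dorsal and 108 to 122 in ventral libraries. The markers of astrocytes, microglia and endothelial or mural cells, 6 of each, had 0 calls by limma, with 3, 2 and 2 at an unadjusted p under 0.05. Of 6 markers of MEC layers, *Wfs1* was called higher dorsally and *Calb1* higher ventrally, and *Reln*, a marker of superficial stellate cells, stood at 28.0 to 38.9 FPKM in all libraries. All 5 markers of CA1 and subiculum were called, 2 higher dorsally (*Wfs1* and *Man1a*) and 3 higher ventrally (*Fibcd1*, *Fn1* and *Mpped1*), with sums of 143 to 164 and 129 to 144 FPKM. Of 5 dentate markers, *Prox1* alone was tested and it was not called, and *C1ql2* was at 0 in dorsal 3. The part of these cell types in the differences of *Gabra3*, *Gabrb1* and *Gabrg3* was not tested.

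The genes whose log2(FPKM + 1) followed each member most closely over the 8 libraries were listed as a description. For *Gabra3* they were *Rasgef1a* (Pearson's r = 0.991), *Figf* (0.985) and *Tmem28* (0.985), and for *Gabrb1* they were *AL845483.1* (0.981), *Myom1* (0.970) and *Tac1* (0.968). *Gabra2* was followed most closely by *D3Bwg0562e* (0.9745), *Gabra4* by *Rictor* (0.990) and *Gabra5* by *Mycbp* (0.968). Among the 3 closest to *Gabrb2* were *Pcdhb3* (0.964) and *Slc30a3* (0.956), and among those of *Gabrd* were *Gm20517* (0.960) and *Flt1* (0.951). No subunit gene was among the 3 closest of any member. With 13674 genes compared over 8 libraries of 2 regions, values of this size are the highest of many and carry no test.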

How the data were processed

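RNA of dorsal and ventral MEC, pooled from 3 or 4 mice per group, was amplified from 120 ng per sample and sequenced as paired-end fragments. RNA integrity numbers were 7.1 to 8.5. The authors processed reads with CASAVA 1.8, aligned them with TopHat2 2.0.8 to Ensembl release 73 (GRCm38) and obtained the deposited FPKM values from Cuffdiff 2, which scales libraries to each other. The authors' comparison table was used for gene symbols, alignment status and the mean FPKM of each region; its fold change, p-value and q-value columns were not used. A table of fragment counts per condition and replicate was not used, and 4 columns of per-sample values were thus left out. Its replicates were not matched to samples, and no test of the counts by condition was run. FPKM values of the 4 dorsal and 4 ventral libraries were compared as log2(FPKM + 1) with limma 3.58.1 in R 4.3.3 (variance trend, 2-sided, Benjamini-Hochberg adjustment over 13674 genes). Genes entered the test where the authors marked enough alignments and the mean FPKM reached 1. Intervals are 95% intervals of limma. Fragment counts were not used, so no depth or counting interval is given. The p-values of limma set the difference between region means against the spread between libraries within a region, moderated by the variance trend. The fit was tested on simulated data. Tables and plots used Python 3.11.15, NumPy 2.4.6, pandas 2.3.3 and matplotlib 3.10.9. Promoters are from RefSeq on GRCm38. Some subunit and other genes, and results that need them, are not reported here. Named are all members, the other subunit genes, called genes and up to 4 examples of each pathway list, called cell type markers and the 3 genes closest to each member by Pearson's correlation. Members and lists were chosen with earlier results of these data known. Alternatives covered the added constant, filters, scaling, variance model, call threshold, regions and leaving out each library. Shares among the 4 alpha subunit genes and their alternatives were added after seeing the data. Ratios between genes were not among the planned results.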

Additional observations from a re-analysis of the deposited data

Results flagged for a closer look

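Among 64 groups of 4 libraries examined for a library far from the others, 3 held one, where chance alone gives about 1 in 20. The FPKM of *Gabra5* was 95.8 in dorsal 4, against 74.9, 77.0 and 77.2 in the other dorsal libraries. Dorsal 4 also had the highest dorsal FPKM of *Gabra2* (39.6). The FPKM of *Srd5a1*, which encodes a steroid reductase of neurosteroid synthesis, was 6.07 in ventral 4, against 5.01, 5.04 and 5.05 in the other ventral libraries. The share of *Gabra3* in the summed FPKM of *Gabra2*, *Gabra3*, *Gabra4* and *Gabra5* was 17.9% in ventral 1, against 15.9%, 16.1% and 16.1% in the other ventral libraries.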

How the results depend on the processing

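Alternatives were run for the calls and for the fold changes of the 9 tested subunit genes described here. With constants of 0.1 or 0.01, other filters, median ratio size factors, quantile normalization or sample quality weights, all tested subunit genes kept their direction and call. One total FPKM per library gave 195 genes with higher dorsal FPKM and 1 member with higher ventral FPKM and moved the median fold change of all genes from -0.01 to 0.04; without the variance trend 1 member was called. A ratio of 1.5 left 143 and 110 genes and 0 members. The regions of the headings gave 1 and 0 genes, 0 members, and the other sign for *Gabra3* (-0.031), *Gabrb1* (-0.047), *Gabra4* (0.080), *Gabra5* (0.14), *Gabrd* (0.045), *Gabrg1* (-0.086) and *Gabrg3* (0.22). Their standard errors ran from 0.093 for *Gabra4* to 0.229 for *Gabrg3*, so these signs are uncertain. The 4 libraries on which heading and table are alike gave 0 and 0 genes, 0 members, and the other sign for *Gabra5* (0.027 ± 0.117, SE), which is also uncertain. Leaving out each library gave 157 to 341 genes with higher dorsal and 91 to 191 with higher ventral FPKM and 1 to 2 members, and reversed no fold change. For the shares of the 4 alpha subunit genes, with alternatives chosen after seeing the data, the headings' regions turned the differences of *Gabra2* (-0.45 points), *Gabra3* (-1.145) and *Gabra5* (1.71) around and left *Gabra4* at -0.11, and leaving out each library moved none beyond the spread between libraries. The causes were not tested. No paired analysis was possible because the columns do not say which libraries come from the same mice. Fragment counts were not used, so the precision that depth gives was not determined.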

Other observations

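*Kctd12*, an auxiliary subunit of GABA-B receptors, had an FPKM of 1.58 in ventral 1 and of 12.9 to 16.6 in the other 7 libraries, and was chosen after its values were seen. Its means were 14.5 ± 1.27 dorsally and 11.4 ± 6.70 ventrally (SD, n = 4 each), and it was not called (adjusted p = 0.616 by limma). *Slc6a13*, a GABA transporter of the leptomeninges, had 3.40 ± 0.519 FPKM dorsally and 5.22 ± 0.903 ventrally (SD, n = 4 each; adjusted p = 0.0613 by limma).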
